A study of Homo sapiens with 10 samples.

Results

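H1650 cells that had received ID1 siRNA and then nicotine or EGF were set against H1650 cells that had received control siRNA and no stimulus. H1650 is a human non-small cell lung cancer line with a mutant EGFR, the receptor of EGF. The members are the ID1 siRNA arrays with nicotine and with EGF and the single unstimulated control array, chosen by cell line, siRNA and stimulus as labelled, which makes 3 of the 10 arrays of the series. Transcripts were measured on Affymetrix U133 Plus 2.0 oligonucleotide arrays, with 1 array per line and condition. All cells had been starved of serum for 48 h, and the stimulated ones then received 1 µM nicotine or 100 ng/ml EGF for 18 h. The other arrays of the line, control siRNA with nicotine and control siRNA with EGF, are given beside the members for many of the genes, because the comparison changes siRNA and stimulus together. The same comparison in A549, another human non-small cell lung cancer line, is taken up at the end.

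ID1 is a helix-loop-helix protein without a DNA-binding region. It dimerises with basic helix-loop-helix activators, which then cannot bind their DNA element, the E-box. It is known for promoting proliferation and blocking differentiation, and in lung cancer cells nicotine and EGF have been reported to induce it. The comparison asks which genes differ from the unstimulated state in both stimulated knockdown arrays, where ID1 itself is reduced.

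Values are MAS5 signals, a linear measure of probe brightness scaled to a trimmed mean of 500 on each array, and log2 was taken for fold changes and tests. The 5 H1650 arrays had median signals of 73.5 to 79.6. Their ratio of 3′ to 5′ GAPDH probe sets, a sign of RNA integrity, lay between 0.903 and 0.932. All 7 epithelial markers examined were above the array median on the 3 arrays, at 3728 to 23525 on the unstimulated array. Of 5 lung lineage markers, NKX2-1, NAPSA and SCGB1A1 were below the median on all 3, while the surfactant proteins SFTPB, at 199 and 232 on the ID1 siRNA arrays against 151 on the unstimulated array, and SFTPC, at 153 and 247 on the ID1 siRNA arrays against 189 on the unstimulated array, were above it. Of the markers of other cell types, 1 of 4 blood, 1 of 3 endothelial and 1 of 4 fibroblast markers were above it on all 3. The summed signal of the fibroblast markers was 1134 and 687 on the ID1 siRNA arrays with nicotine and with EGF, against 668 on the unstimulated array, with PDGFRB and LUM below the array median on all 3. That of the endothelial markers was 420 and 373 on the ID1 siRNA arrays against 246 on the unstimulated array, with VWF below the array median on all 3, and that of the blood markers 340.1 and 284 on the ID1 siRNA arrays against 333 on the unstimulated array. The part of these markers in any result was not tested.

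ID1 had signals of 881 with nicotine and 1031 with EGF in the ID1 siRNA cells, 4964 and 5121 in the control siRNA cells given the same stimuli, and 5029.9 in unstimulated control cells. Both knockdown arrays thus lay far below the 3 control arrays, and the stimulated controls lay beside the unstimulated one. ID1 fell 5.28-fold (log2 change -2.40 ± 0.15, SE, adjusted p = 0.000281). The p-values come from a limma fit across 12514 genes with Benjamini-Hochberg adjustment, and a gene is called at an adjusted p under 0.05. The ID1 paralogs were not called: ID3 had 2565 and 2115 on the ID1 siRNA arrays against 3592 on the unstimulated array (adjusted p = 0.106), ID2 had 528 and 375 in ID1 siRNA cells against 487 in the unstimulated control (adjusted p = 0.852), and ID4 had 366 and 332 in ID1 siRNA cells against 226 in the unstimulated control (adjusted p = 0.304). TCF12, a basic helix-loop-helix partner of ID proteins, was not called either (log2 change -0.22 ± 0.13, adjusted p = 0.426). Of 16 tested ID family and helix-loop-helix genes, 1 was called lower (6.25%, beside 1.71% of all genes), ID1 itself, and none higher.

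Across the 12514 tested genes, 324 were called (2.59%), 110 of them higher (0.879%) and 214 lower (1.71%) in the stimulated ID1 siRNA cells. By size alone and with no test, 138 genes (1.1%) were at least 2-fold higher on both knockdown arrays and 139 (1.11%) at least 2-fold lower on both. Of these, 42 and 69 were also called. Dim signals carried much of the higher side: 90 of the 138 had an unstimulated signal below the array median, while 29 of the 139 had that on the knockdown side. With all 3 arrays required to be at or above their medians, 48 genes were 2-fold higher and 104 were 2-fold lower. Both ID1 siRNA arrays lay above all 3 control arrays of the line in 2687 of the tested genes (21.5%) and below all 3 in 2994 (23.9%), so a lack of overlap is common and is given only to describe a gene. Among called genes it was nearly fixed by the call itself. It held for 102 of the 110 called higher (92.7%) and 212 of the 214 called lower (99.1%), so it adds no support to a call.

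The unstimulated array is single, so the test assumes that it varies like the others, and the spread it uses is the difference between nicotine and EGF arrays within each arm. Nothing in the labels says that the arrays came from separate cultures. With a term for nicotine against EGF within each line, which takes that difference out of the spread and leaves 2 residual degrees of freedom, 289 genes were called higher and 473 lower. Leaving out the ID1 siRNA array with nicotine left 21 genes called higher and 53 lower, and leaving out the one with EGF left 31 and 89. Without the control siRNA array with nicotine the counts were 192 and 329, and without the one with EGF 188 and 330. Without the A549 ID1 siRNA arrays with nicotine or EGF, which enter only through the shared spread, they were 46 and 119 or 47 and 118.

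**Figure D1:**
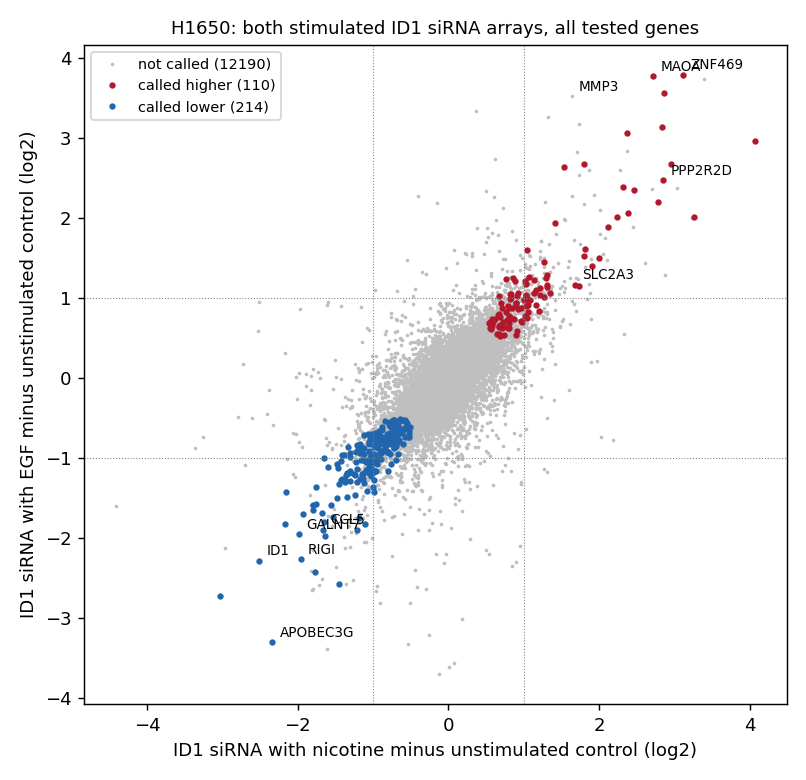
Log2 change from the H1650 unstimulated control array in ID1 siRNA cells with nicotine (horizontal) and with EGF (vertical), 1 point per tested gene, with dotted lines at 2-fold. The 110 genes called higher (red) and the 214 called lower (blue) lie near the diagonal, while MMP3 lies high on the EGF axis and was not called.

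The other contrasts of the line are given beside this one, and they share arrays with it. Control siRNA cells with a stimulus, against the unstimulated control, had 0 genes called higher and 0 lower (0.0% each) by limma, with 176 higher and 145 lower at an unadjusted p under 0.05. Stimulated ID1 siRNA cells, against stimulated control siRNA cells, had 1028 genes called (8.21%), 460 of them higher (3.68%) and 568 lower (4.54%).

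Genes of the interferon response formed the lowest group. Interferons signal through STAT proteins and IRF9 to a promoter element, the ISRE, and induce proteins that sense viral RNA, degrade it or block its translation. Of 40 listed genes 37 were tested, and their median log2 change was -1.15, beside -0.02 for all tested genes. Called lower were 4 of the 37 (10.8%, against 1.71% of all genes) and none were called higher, while 28 had an unadjusted p under 0.05 in the lower direction. With the nicotine against EGF term 31 were called lower. On both knockdown arrays 18 of the 37 (48.6%) were at least 2-fold lower, beside 1.11% of all genes. Leaving out either stimulated control array of H1650 raised the called count to 14, and leaving out the ID1 siRNA array with nicotine or EGF lowered it to 2 or 1. Leaving out any 1 of the 4 stimulated A549 arrays gave 2.

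The promoters of these genes called lower are shown because the ISRE core stands in them, in capitals: GAAA, any 2 bases and GAAA, searched on both strands. Each run covers 250 bases before to 50 after the RefSeq start (GRCh38.p14), on the strand of the gene. The genes are DDX60 (chr4:168318703-168319002, minus strand), IFIT5 (chr10:89414318-89414617, plus strand) and ISG20 (chr15:88638766-88639065, plus strand) of the list, and DTX3L (chr3:122564088-122564387, plus strand) and HLA-F (chr6:29723184-29723483, plus strand) outside it.
DDX60: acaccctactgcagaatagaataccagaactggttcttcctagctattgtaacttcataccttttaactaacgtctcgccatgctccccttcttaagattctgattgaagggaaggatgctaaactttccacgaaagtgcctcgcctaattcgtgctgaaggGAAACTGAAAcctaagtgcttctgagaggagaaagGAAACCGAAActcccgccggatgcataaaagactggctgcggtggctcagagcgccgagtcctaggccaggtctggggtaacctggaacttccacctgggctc
IFIT5: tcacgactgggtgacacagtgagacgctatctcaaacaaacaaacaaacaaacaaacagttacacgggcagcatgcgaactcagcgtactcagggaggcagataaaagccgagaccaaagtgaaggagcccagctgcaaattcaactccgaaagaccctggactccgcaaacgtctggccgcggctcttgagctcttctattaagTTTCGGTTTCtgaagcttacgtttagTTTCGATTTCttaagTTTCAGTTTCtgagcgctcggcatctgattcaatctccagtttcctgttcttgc
ISG20: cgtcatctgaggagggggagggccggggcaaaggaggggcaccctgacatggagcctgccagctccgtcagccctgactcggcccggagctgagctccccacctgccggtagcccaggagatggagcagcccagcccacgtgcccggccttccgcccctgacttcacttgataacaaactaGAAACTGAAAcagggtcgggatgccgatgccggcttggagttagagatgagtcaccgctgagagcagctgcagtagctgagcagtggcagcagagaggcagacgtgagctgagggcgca
DTX3L: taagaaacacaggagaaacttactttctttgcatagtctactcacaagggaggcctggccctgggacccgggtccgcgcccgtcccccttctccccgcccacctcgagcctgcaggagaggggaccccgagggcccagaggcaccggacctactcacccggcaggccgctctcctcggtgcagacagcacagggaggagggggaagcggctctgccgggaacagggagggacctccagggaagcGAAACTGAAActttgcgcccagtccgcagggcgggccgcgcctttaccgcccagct
HLA-F: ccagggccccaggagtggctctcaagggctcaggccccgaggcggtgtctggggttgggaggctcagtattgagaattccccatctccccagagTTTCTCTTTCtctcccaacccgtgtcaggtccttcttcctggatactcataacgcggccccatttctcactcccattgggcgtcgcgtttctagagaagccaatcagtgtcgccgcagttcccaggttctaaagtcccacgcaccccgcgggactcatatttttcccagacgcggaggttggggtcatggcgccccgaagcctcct
The first match began 88 bases before the start in DDX60, 45 in IFIT5, 69 in ISG20, 6 in DTX3L and 156 in HLA-F, with 2 matches in DDX60 and 3 in IFIT5. The core was found in 3 of the 4 list genes called lower, in 21 of 30 interferon genes with a promoter in the table, in 16 of 178 genes called lower (8.99%), in 4 of 88 called higher (4.55%) and in 3.57% of all 35116 promoter windows of this length. Counted by gene, as the lists were, it was in 3.88% of all tested genes with a promoter. A match describes letters and does not show that the site is bound.

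RIGI, the sensor of viral double-stranded RNA, had signals of 1550.5 and 1255 in ID1 siRNA cells with nicotine and with EGF, 6082 and 3556 in control siRNA cells with the same stimuli and 6041 in unstimulated control cells. The knockdown arrays lay below all 3 controls, and RIGI fell 4.33-fold against the unstimulated array (log2 -2.11 ± 0.27, adjusted p = 0.00643). DDX60, a helicase that assists RNA sensing, had 1632 and 995 on the ID1 siRNA arrays, 3683 and 2661 on the stimulated control arrays and 3517 on the unstimulated array (log2 -1.46 ± 0.29, adjusted p = 0.0313). IFIT5, which binds RNA with a 5′ triphosphate, had 2153 and 1714 in ID1 siRNA cells, 3617 and 2980.3 in stimulated controls and 3488 in the unstimulated control (log2 -0.86 ± 0.19, adjusted p = 0.0439). ISG20, an exonuclease of single-stranded RNA, had 1081 and 1146 in ID1 siRNA cells, 2516 and 1909 in stimulated controls and 2518 in the unstimulated control (log2 -1.18 ± 0.26, adjusted p = 0.0439). For all 4 genes the groups did not overlap, as in 99.1% of all genes called lower, and the EGF control was the lowest of the 3 control arrays.

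Other abundant members had larger spreads. RSAD2, which makes the antiviral nucleotide ddhCTP, had 3029 and 2019 on the ID1 siRNA arrays, 11276 and 4932 on the stimulated control arrays and 10751 on the unstimulated array, and missed the threshold (log2 -2.12 ± 0.48, adjusted p = 0.0512). CMPK2, a mitochondrial nucleotide kinase beside RSAD2 in the genome, had 2830.0 and 1584 in ID1 siRNA cells, 10067 and 4185 in stimulated controls and 9919.6 in the unstimulated control (adjusted p = 0.0576). MX1, a GTPase that traps viral ribonucleoproteins, had 7663 and 4940.2 in ID1 siRNA cells against 16217 in the unstimulated control (adjusted p = 0.0767). In these 3 genes the EGF control stood well below the nicotine control. Further from a call were ISG15, IFIT1 and IFI44L. ISG15 had 11455.5 and 10347 in ID1 siRNA cells against 17808 in the unstimulated control (log2 -0.71 ± 0.52, adjusted p = 0.541). Unstimulated signals of IFIT1 and IFI44L were 13900 and 8200 (log2 -1.36 ± 0.58 and -2.10 ± 0.86, adjusted p = 0.247 and 0.229). BST2, which tethers virions to the membrane, had 6963 and 5846 in ID1 siRNA cells against 6807 in the unstimulated control (log2 change -0.09 ± 0.34, adjusted p = 0.942). The list medians show the same order of arrays: -0.93 with nicotine and -1.41 with EGF in ID1 siRNA cells, 0.02 with nicotine and -0.79 with EGF in control siRNA cells, each relative to the unstimulated control.

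Genes outside the list were called lower as well. APOBEC3G, a cytidine deaminase that edits retroviral DNA, had 594 and 303 on the ID1 siRNA arrays, 3082 and 1418 on the stimulated control arrays and 2998 on the unstimulated array (log2 -2.82 ± 0.56, adjusted p = 0.0313). Its neighbour APOBEC3B, a nuclear deaminase linked to mutation in tumours, had 3138 and 2841 in ID1 siRNA cells, 7991 and 7788 in stimulated controls and 7998 in the unstimulated control (log2 -1.42 ± 0.12, adjusted p = 0.00152). The 3 control arrays of APOBEC3B were within a few percent of each other. The family shares sequence, so probe sets of its members may cross-hybridise. DTX3L, an E3 ligase partner of PARP9, fell 2.98-fold (log2 -1.57 ± 0.23, adjusted p = 0.00983), with 2533 and 2469 in ID1 siRNA cells against 7447 in the unstimulated control. SP100, a nuclear body protein, fell 2.25-fold (log2 -1.17 ± 0.17, adjusted p = 0.0105), although 1 of its 5 other bright probe sets had a log2 change of 0.12. BATF2, a transcription factor induced by interferon, had 272 and 300.3 in ID1 siRNA cells against 940.2 in the unstimulated control (log2 -1.72 ± 0.34, adjusted p = 0.0313).

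Among cytokines and their signalling genes, CCL5, a chemokine for T cells, had 3530.4 and 3019 in ID1 siRNA cells with nicotine and with EGF, 12273 and 5545 in stimulated control cells and 11233 in unstimulated control cells. Both ID1 siRNA values were the lowest, and CCL5 fell 3.44-fold (log2 -1.78 ± 0.34, adjusted p = 0.0292). EBI3, a subunit of the cytokines IL-27 and IL-35, had 94.4 and 43.3 on the ID1 siRNA arrays, 271 and 261 on the stimulated control arrays and 257 on the unstimulated array (log2 -2.01 ± 0.42, adjusted p = 0.0362), the EGF value of the knockdown being below the array median. MYD88, the adaptor of Toll-like and IL-1 receptors, fell 2.25-fold (log2 -1.17 ± 0.19, adjusted p = 0.017), with 3764 and 3642 in ID1 siRNA cells against 8347 in the unstimulated control. The NF-kB and inflammatory list had 1 of 23 tested genes called lower (4.35%, beside 1.71% of all genes) and none called higher, with a median log2 change of -0.45. The chemokine CXCL10 had 633 and 262 in ID1 siRNA cells, 1689.6 and 305 in stimulated controls and 1516 in the unstimulated control and was not called (adjusted p = 0.272). IL6, with 4377 and 4596 in ID1 siRNA cells against 6911 in the unstimulated control, and CXCL8, with 5964 and 7919 in ID1 siRNA cells against 7295 in the unstimulated control, were not called (adjusted p = 0.152 and 0.916). Leaving out either stimulated control array of H1650 gave 3 called members, and leaving out either ID1 siRNA array of H1650 or any 1 stimulated array of A549 gave none. With the nicotine against EGF term 4 were called lower.

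Antigen processing genes, which cut and load peptides on class I molecules, had a median log2 change of -0.60 over 14 tested genes, of which 1 was called lower (7.14%, beside 1.71% of all genes) and none higher. HLA-F, a non-classical class I gene, had 4084 and 3847 in ID1 siRNA cells, 6895 and 6515 in stimulated controls and 6728 in the unstimulated control (log2 -0.76 ± 0.15, adjusted p = 0.0297). TAP1, the peptide transporter, had 1548 and 1009 in ID1 siRNA cells against 2612 in the unstimulated control (adjusted p = 0.105), and PSMB9, a subunit of the immunoproteasome, had 1526 and 909 in ID1 siRNA cells against 2431 in the unstimulated control (adjusted p = 0.104). B2M, the light chain of class I, had 23179.9 and 27158 in ID1 siRNA cells against 24911 in the unstimulated control (log2 change 0.01 ± 0.28). Class I genes are alike in sequence, which leaves HLA-F uncertain. RFX5, a factor that binds the promoters of class II genes, was called lower outside the list, with 901 and 851 in ID1 siRNA cells against 2041 in the unstimulated control (log2 -1.22 ± 0.16, adjusted p = 0.00668). Without either ID1 siRNA array of H1650 the list had no called member, and without either stimulated control array it had 3. With the nicotine against EGF term 6 were called lower.

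**Figure D2:**
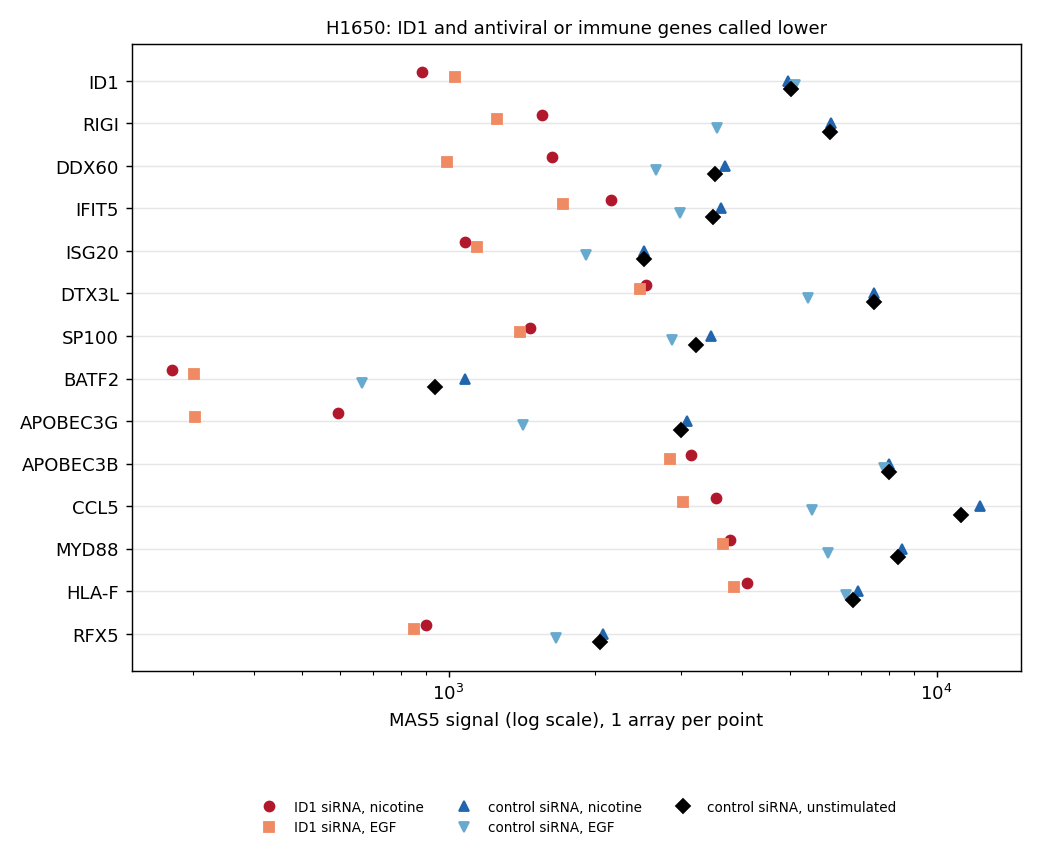
MAS5 signal on a log scale for ID1 and 13 antiviral or immune genes called lower, with 1 point per H1650 array (red and orange, ID1 siRNA with nicotine and with EGF; blue and light blue, control siRNA with the same stimuli; black, unstimulated control). In each gene both ID1 siRNA points lie left of all control points, and for RIGI, DDX60, CCL5 and APOBEC3G the EGF control lies between them and the other controls.

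Of 18 tested p53 targets 3 were called lower (16.7%, beside 1.71% of all genes) and none higher, with a median log2 change of -0.26. TP53INP1, which promotes p53-dependent death and autophagy, had 170.3 and 189.5 in ID1 siRNA cells, 472 and 359 in stimulated controls and 458 in the unstimulated control (log2 -1.35 ± 0.26, adjusted p = 0.0293). RRM2B, the p53-inducible subunit of ribonucleotide reductase, had 465 and 518 in ID1 siRNA cells, 1327 and 1265 in stimulated controls and 1243 in the unstimulated control (log2 -1.34 ± 0.15, adjusted p = 0.00621). BAX, which permeabilises mitochondria during apoptosis, had 724 and 665 in ID1 siRNA cells against 1155 in the unstimulated control (log2 -0.74 ± 0.14, adjusted p = 0.0293). The groups did not overlap in these genes, as in 99.1% of all genes called lower. CDKN1A, the p21 inhibitor of cyclin-dependent kinases, had 3445 and 3941 in ID1 siRNA cells against 4737 in the unstimulated control and was not called (adjusted p = 0.22), nor was MDM2, the ligase that degrades p53 (adjusted p = 0.0765). MDM2 changed by -0.52 on the probe set used, and 3 of its 6 other bright probe sets had the opposite sign (range -1.04 to 0.95). Leaving out any 1 of the 4 ID1 siRNA arrays, of H1650 or A549, left 1 called member.

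Other bright genes were called lower by more than 2-fold. GALNT7, which adds N-acetylgalactosamine to mucin-type proteins, had 2467 and 2518 in ID1 siRNA cells with nicotine and with EGF, 9838 and 7422 in stimulated control cells and 9739 in unstimulated control cells. It fell 3.91-fold (log2 -1.97 ± 0.18, adjusted p = 0.00181), and its other bright probe set had a change of -2.17. VAMP3, a SNARE of recycling endosomes, had 2156 and 2134 on the ID1 siRNA arrays, 6778 and 6028 on the stimulated control arrays and 6881 on the unstimulated array (log2 -1.68 ± 0.15, adjusted p = 0.00152), and its 2 other bright probe sets changed by -1.65 and -1.53. TRAM1, a protein of the translocation channel of the endoplasmic reticulum, had 2136 and 2020.0 in ID1 siRNA cells against 4966 in the unstimulated control (log2 -1.26 ± 0.16, adjusted p = 0.00637). FAM174A, a membrane protein, had 681 and 536 in ID1 siRNA cells against 2109.9 in the unstimulated control (log2 -1.80 ± 0.17, adjusted p = 0.00181). Both knockdown arrays lay below every control array in each of these genes, as in 99.1% of all genes called lower and 23.9% of all genes.

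REEP5, a protein that shapes the endoplasmic reticulum, had 1737 and 2002 in ID1 siRNA cells against 6019 in the unstimulated control (log2 -1.69 ± 0.14, adjusted p = 0.00138), but its other bright probe set changed by -0.03. ATG13, a subunit of the kinase complex that starts autophagy, likewise had 311 and 349.6 in ID1 siRNA cells against 1047 in the unstimulated control (log2 -1.67 ± 0.19, adjusted p = 0.00637), with changes of -0.21 and -0.09 on its other bright probe sets. These decreases therefore hold for 1 probe set each. TMEM150C, a membrane protein, had 102 and 129 in ID1 siRNA cells against 455 in the unstimulated control (log2 -1.99 ± 0.30, adjusted p = 0.0119). PCBP1, which binds poly(C) stretches of RNA, had 4844 and 5295 in ID1 siRNA cells against 12079.9 in the unstimulated control (log2 -1.25 ± 0.17, adjusted p = 0.00863). TIMP2, an inhibitor of matrix metalloproteinases, had 5328 and 5461 in ID1 siRNA cells against 11296 in the unstimulated control (log2 -1.07 ± 0.20, adjusted p = 0.0277) and was the called gene among 19 tested genes of the invasion and matrix protease list (5.26% called lower, beside 1.71% of all genes). In the lists of lysosome and of starvation genes, NEU1, the lysosomal sialidase, fell 1.61-fold (adjusted p = 0.0472) and YPEL5 fell 1.73-fold (adjusted p = 0.0173).

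Dim genes were also called lower. SFMBT2, a Polycomb-group protein, had 5.55 and 6.87 on the ID1 siRNA arrays, 30.2 and 42.5 on the stimulated control arrays and 45.3 on the unstimulated array, all below the array median, so no fold is given (adjusted p = 0.0159). MMP28, a matrix metalloproteinase of epithelia, was at least 1.85-fold lower, with 38.4 and 45.0 in ID1 siRNA cells against 147 in the unstimulated control (adjusted p = 0.0463), while its other bright probe sets changed by -0.29 and 0.60. A fold given as at least compares the bright side with the higher of the dim value and its array's median. MVB12B, a subunit of the ESCRT-I sorting complex, was at least 1.5-fold lower (adjusted p = 0.0282), but the stimulated control arrays, at 39.6 and 32.8, were as low as the ID1 siRNA arrays, at 37.9 and 34.2, and the unstimulated array, at 119, stood alone. HPGD, which inactivates prostaglandins, showed that arrangement too, at 9.61 and 6.08 in ID1 siRNA cells, 5.41 and 5.96 in stimulated controls and 32.6 in the unstimulated control (adjusted p = 0.0106), and its other bright probe sets ranged from -1.42 to 2.27. SFMBT2, HPGD and MVB12B entered the test through A549, where unstimulated control cells had 201, 14937 and 563. The intensity trend used the mean over both lines too. The spread applied to them was thus that of brighter genes, and their calls rest on A549 brightness.

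On the higher side, genes of the cell cycle formed the group with the highest median among lists of 7 or more tested genes. Mitotic genes are held back in resting cells by the DREAM complex, which binds a promoter element called the CHR, and they are released as cells pass into G2. Of 30 tested G2/M genes 5 were called higher (16.7%, beside 0.879% of all genes) and none lower, with a median log2 change of 0.40. Over single arrays the medians were 0.43 with nicotine and 0.34 with EGF in ID1 siRNA cells and -0.08 and -0.25 in control siRNA cells, each relative to the unstimulated control. The G1/S and DNA replication list had 1 of 33 genes called higher (3.03%, beside 0.879% of all genes) and a median of 0.33. With the nicotine against EGF term 8 G2/M genes and 6 G1/S genes were called higher. Leaving out either ID1 siRNA array of H1650 left 0 G2/M genes called, and leaving out any 1 stimulated A549 array left 2 or 3. Centring each array on its median gave 2 called genes and a list median of 0.29. On the G1/S list, 0 genes were called without the ID1 siRNA array with nicotine and 5 without either stimulated control array of H1650.

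Promoters of 3 called mitotic genes are shown for the CHR letters TTTGAA, searched on both strands and in capitals: KIF23 (chr15:69414099-69414398, plus strand), BUB1B (chr15:40160819-40161118, plus strand) and MKI67 (chr10:128126374-128126673, minus strand), from the same RefSeq windows. Of the called G2/M genes, 4 had a promoter in the table, and the 3 shown are those that hold the letters.
KIF23: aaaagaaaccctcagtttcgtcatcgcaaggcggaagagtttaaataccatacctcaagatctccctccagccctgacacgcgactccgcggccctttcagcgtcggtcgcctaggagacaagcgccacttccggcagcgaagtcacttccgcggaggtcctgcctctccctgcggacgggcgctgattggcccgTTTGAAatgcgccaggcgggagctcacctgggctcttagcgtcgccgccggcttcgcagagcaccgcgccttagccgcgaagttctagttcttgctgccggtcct
BUB1B: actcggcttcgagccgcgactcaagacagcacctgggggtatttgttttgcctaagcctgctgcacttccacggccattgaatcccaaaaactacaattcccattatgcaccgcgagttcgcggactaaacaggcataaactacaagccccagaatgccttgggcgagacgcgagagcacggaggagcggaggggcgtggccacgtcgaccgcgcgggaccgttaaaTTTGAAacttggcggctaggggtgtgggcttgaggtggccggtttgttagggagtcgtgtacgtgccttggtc
MKI67: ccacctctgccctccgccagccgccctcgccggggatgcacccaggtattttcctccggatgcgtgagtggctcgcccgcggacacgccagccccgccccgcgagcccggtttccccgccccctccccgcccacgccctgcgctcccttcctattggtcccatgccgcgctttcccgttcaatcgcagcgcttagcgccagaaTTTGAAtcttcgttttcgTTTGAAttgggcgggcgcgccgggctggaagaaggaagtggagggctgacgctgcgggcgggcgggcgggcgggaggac
These letters began 55 bases before the start in KIF23, 23 in BUB1B and 47 and 29 in MKI67. They occurred in 17 of 24 G2/M genes with a promoter in the table, in 22 of 88 genes called higher (25.0%), in 21 of 178 called lower (11.8%), in 13.9% of all tested genes with a promoter and in 15.2% of all windows. The E-box, CANNTG, was in 72.7% of the called higher genes and 62.9% of the called lower genes, beside 67.1% of all tested genes with a promoter and 68.7% of all windows.

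KIF23, a kinesin of the cytokinetic midzone, had 3271 and 2850.2 in ID1 siRNA cells, 1855 and 1839 in stimulated controls and 1969.8 in the unstimulated control (log2 0.63 ± 0.14, adjusted p = 0.045). MKI67, the proliferation antigen Ki-67, had 2641 and 2867 in ID1 siRNA cells, 1721 and 1432 in stimulated controls and 1761 in the unstimulated control (log2 0.64 ± 0.14, adjusted p = 0.0459). BIRC5, survivin of the chromosomal passenger complex, had 4921 and 4554 on the ID1 siRNA arrays, 2669 and 2390.4 on the stimulated control arrays and 2827 on the unstimulated array (log2 0.74 ± 0.16, adjusted p = 0.0463). All 3 control arrays were below both knockdown arrays for each gene, as in 92.7% of all genes called higher, with changes under 2-fold. The same held for BUB1B, a spindle checkpoint protein, at 3631 and 3496 in ID1 siRNA cells against 2079 in the unstimulated control (log2 0.78 ± 0.13, adjusted p = 0.0162), and for CENPE, a kinetochore kinesin, at 2078 and 2138 in ID1 siRNA cells against 1117 in the unstimulated control (log2 0.92 ± 0.15, adjusted p = 0.0169). KIF20A, a kinesin of cytokinesis, had the largest change of the list but no call, 2309 and 2579 in ID1 siRNA cells against 1117 in the unstimulated control (log2 1.13 ± 0.27, adjusted p = 0.0572). MCM3, a subunit of the replicative helicase, was the called G1/S gene, with 2637 and 2174 in ID1 siRNA cells, 1215 and 1053 in stimulated controls and 1337 in the unstimulated control (log2 0.84 ± 0.16, adjusted p = 0.0289). Its knockdown arrays also lay above all controls. CDC6, which loads that helicase, had 3076 and 3308 in ID1 siRNA cells against 2201 in the unstimulated control (adjusted p = 0.0675).

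Genes outside these lists were called higher as well. HELLS, a chromatin remodeller needed for DNA methylation, rose 2.25-fold, with 2831 and 2659 in ID1 siRNA cells against 1221 in the unstimulated control (log2 1.17 ± 0.23, adjusted p = 0.0293). ZNF367, a zinc finger protein, rose 2.34-fold, with 4818 and 4296 in ID1 siRNA cells against 1945 in the unstimulated control (log2 1.23 ± 0.23, adjusted p = 0.026). H2BC5, a histone H2B gene, rose 2.36-fold, with 1796 and 1628 in ID1 siRNA cells against 724 in the unstimulated control (log2 1.24 ± 0.16, adjusted p = 0.00637), and probe sets of histone genes may share targets. STMN1, stathmin, which destabilises microtubules, was the called member among 13 tested stathmins and tubulins (7.69% called higher, beside 0.879% of all genes), with 3516 and 3438 in ID1 siRNA cells against 2184 in the unstimulated control (log2 0.67 ± 0.13, adjusted p = 0.0283). Both knockdown arrays lay above every control array in each of these genes, as in 92.7% of all genes called higher and 21.5% of all genes.

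Bright genes with larger increases had varied roles. SLC2A3, the glucose transporter GLUT3, had 4811 and 3383 on the ID1 siRNA arrays, 1447 and 1101 on the stimulated control arrays and 1504 on the unstimulated array (log2 1.42 ± 0.27, adjusted p = 0.0289), and was the called gene among 22 tested hypoxia and glycolysis genes (4.55% called higher, beside 0.879% of all genes). STC2, a secreted glycoprotein induced by stress, had 2151 and 1764 in ID1 siRNA cells against 848 in the unstimulated control (log2 1.20 ± 0.16, adjusted p = 0.00807). ETV1, an ETS transcription factor downstream of ERK, had 773 and 740.4 in ID1 siRNA cells against 344 in the unstimulated control (log2 1.14 ± 0.17, adjusted p = 0.0119). Its 3 other bright probe sets changed by only 0.19 to 0.56. ETV1 was the called gene among 20 ERK targets and feedback inhibitors (5.0% called higher, beside 0.879% of all genes). SLC2A3, STC2 and ETV1 lay above every control array on both knockdown arrays, as did 92.7% of all genes called higher. MTHFD2L, a mitochondrial enzyme of folate metabolism, had 1588 and 1825 in ID1 siRNA cells against 759 in the unstimulated control (log2 1.17 ± 0.17, adjusted p = 0.0106). TOMM22, a receptor of the outer mitochondrial translocase, had 6007 and 5992 in ID1 siRNA cells against 2949.7 in the unstimulated control (log2 1.02 ± 0.14, adjusted p = 0.00878), and BRI3BP had 3859.5 and 3919 in ID1 siRNA cells against 1899.8 in the unstimulated control (log2 1.03 ± 0.12, adjusted p = 0.00637).

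FLRT2, an adhesion protein that binds UNC5 receptors, had 1597 and 1138 in ID1 siRNA cells, 509.9 and 416 in stimulated controls and 401 in the unstimulated control (log2 1.75 ± 0.35, adjusted p = 0.0308). CCDC80, a secreted matrix protein, had 1201 and 998 in ID1 siRNA cells, 399.6 and 342 in stimulated controls and 347 in the unstimulated control (log2 1.66 ± 0.26, adjusted p = 0.0138). MAMDC2, a secreted protein with MAM domains, had 3148 and 3066 in ID1 siRNA cells against 1285 in the unstimulated control (log2 1.27 ± 0.21, adjusted p = 0.0173). These genes were higher on both knockdown arrays than on any control array, as were 92.7% of all genes called higher. KISS1R, the kisspeptin receptor, rose 3.16-fold, with 540.0 and 381 in ID1 siRNA cells against 144 in the unstimulated control (log2 1.66 ± 0.33, adjusted p = 0.0314). TNFRSF10D, a decoy receptor of TRAIL, had 319.6 and 462 in ID1 siRNA cells, 159 and 247 in stimulated controls and 120.4 in the unstimulated control (log2 1.67 ± 0.31, adjusted p = 0.0258). DOCK4, a Rac activator, had 381 and 816 in ID1 siRNA cells, 236 and 384 in stimulated controls and 131 in the unstimulated control (log2 2.09 ± 0.41, adjusted p = 0.0292), so that its EGF control was as high as its knockdown array with nicotine.

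Probe sets disagreed for PPP2R2D, a regulatory subunit of the phosphatase PP2A. Its brightest probe set had 1081 and 833 in ID1 siRNA cells, 171 and 176 in stimulated controls and 150.2 in the unstimulated control (log2 2.66 ± 0.33, adjusted p = 0.00637), while its other bright probe set changed by -0.65. SPECC1, a cytoskeletal protein, had 522 and 513 in ID1 siRNA cells against 210.3 in the unstimulated control (log2 1.30 ± 0.27, adjusted p = 0.0348), and its other bright probe sets changed by -0.60 and -0.25.

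The largest increases by fold fell on genes that were dim on the unstimulated array. ZNF469, a zinc finger protein of connective tissue, had 82.5 and 132.7 on the ID1 siRNA arrays, 78.9 and 63.0 on the stimulated control arrays and 9.56 on the unstimulated array, a rise of at least 1.42-fold (adjusted p = 0.0059). MAOA, monoamine oxidase A, had 86.7 and 181 in ID1 siRNA cells, 92.7 and 86.3 in stimulated controls and 13.2 in the unstimulated control, a rise of at least 1.71-fold (adjusted p = 0.00643), and its other bright probe set changed by 0.65. AGAP2, a GTPase-activating protein, was at least 1.77-fold higher, with 135 and 125 in ID1 siRNA cells, 82.0 and 118 in stimulated controls and 24.5 in the unstimulated control. The unstimulated array stood alone at the low end in these genes. For SLC39A5, a zinc transporter, the values were 134 and 141 in ID1 siRNA cells, 131 and 147 in stimulated controls and 26.9 in the unstimulated control and the rise was at least 1.87-fold. TRMT2A, a tRNA methyltransferase, was at least 2.42-fold higher, with 193 and 164 in ID1 siRNA cells, 148 and 119 in stimulated controls and 44.4 in the unstimulated control. In these 5 genes the stimulated controls were also well above the unstimulated array, and the ID1 siRNA cells against stimulated controls gave no call (adjusted p of 0.435 for TRMT2A and 0.302 for ZNF469).

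FXYD2, a regulator of the sodium pump, with 87.9 and 41.1 in ID1 siRNA cells, 33.8 and 53.7 in stimulated controls and 5.27 in the unstimulated control, had that arrangement at lower signals, and so did ABCC2, an export pump, with 31.7 and 51.8 in ID1 siRNA cells, 22.7 and 76.3 in stimulated controls and 4.38 in the unstimulated control. The non-coding RNA LINC01234 had 14.2 and 17.6 in ID1 siRNA cells, 12.2 and 21.4 in stimulated controls and 2.00 in the unstimulated control. No fold is given for them. By contrast P3H3, a collagen prolyl hydroxylase, had 107 and 91.7 in ID1 siRNA cells, 10.7 and 9.36 in stimulated controls and 22.7 in the unstimulated control, with both knockdown arrays above every control and a rise of at least 1.35-fold (adjusted p = 0.0282). MUC5AC, a secreted airway mucin, had 37.5 and 25.2 in ID1 siRNA cells, 2.58 and 5.25 in stimulated controls and 5.48 in the unstimulated control, all below the array median (adjusted p = 0.0466). FXYD2, ABCC2, LINC01234, MUC5AC, P3H3 and ZNF469 also entered the test through A549. Their signals in A549 unstimulated control cells were 543, 1639, 612, 697, 238 and 828. The spread applied to them was that of brighter genes, and their calls rest on A549 brightness.

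**Figure D3:**
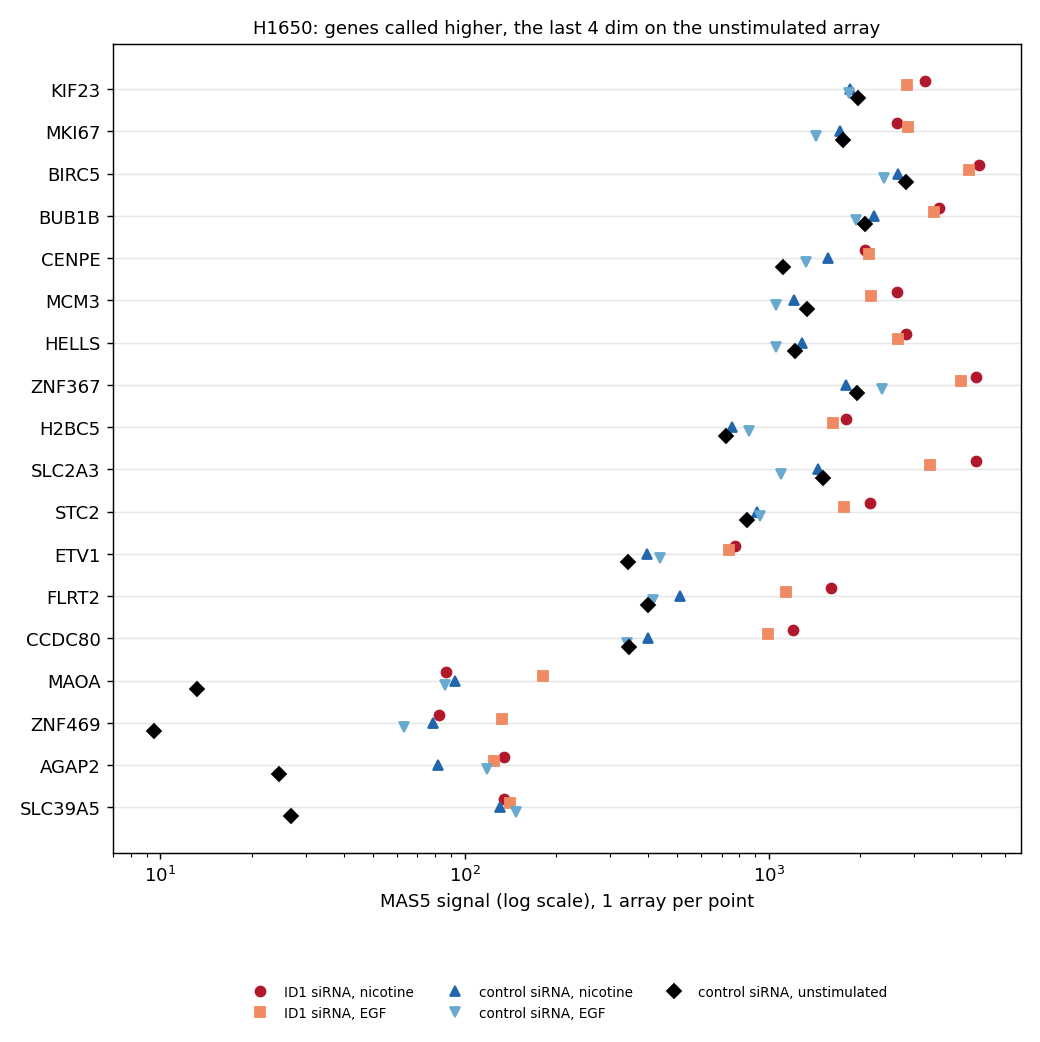
MAS5 signal on a log scale for 18 genes called higher, with 1 point per H1650 array (colours as labelled, ID1 siRNA arrays first in the key). Down to CCDC80 both ID1 siRNA points lie right of all control points, while in MAOA, ZNF469, AGAP2 and SLC39A5 the unstimulated point stands apart from the other 4.

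Matrix protease genes differed between the ID1 siRNA arrays themselves. MMP3, stromelysin, had 479 with nicotine and 1772 with EGF in ID1 siRNA cells, 169 and 326 in stimulated controls and 154 in the unstimulated control (adjusted p = 0.135). MMP1, interstitial collagenase, had 305 with nicotine and 1289.6 with EGF in ID1 siRNA cells, 650.3 and 4553 in stimulated controls and 601 in the unstimulated control (adjusted p = 0.99). Over both siRNA groups of H1650 MMP1 was higher with EGF than with nicotine by 2.44 ± 0.20 on the log2 scale (adjusted p = 0.00549, limma with the nicotine against EGF term), where 9 of all genes were called higher with EGF (0.0719%) and 18 lower (0.144%). The same difference for MMP3 was 1.42 ± 0.42 and missed the threshold (adjusted p = 0.265). This test was added after the values were seen. DUSP6, a phosphatase induced by ERK, had 1056 and 1527 in ID1 siRNA cells, 1250.3 and 1849 in stimulated controls and 1137 in the unstimulated control (adjusted p = 0.823). EGFR, at 9569.7 and 10123 in ID1 siRNA cells against 11464 in the unstimulated control (log2 change -0.22 ± 0.14), and CHRNA5, a nicotinic receptor subunit, at 447 and 418 in ID1 siRNA cells against 376 in the unstimulated control (log2 change 0.20 ± 0.24), were not called.

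Of all 35 gene lists, 19 had no called member, and 29 had a median log2 change within 0.3 of 0. Epithelial markers had 0 of 20 tested genes called and a median of -0.03, mesenchymal markers 0 of 15 and 0.19, the EGF receptor family and its ligands 0 of 10 and 0.00, and nicotinic receptor subunits 0 of 7 and -0.09. A list without a call is not shown to be unchanged.

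**Figure D4:**
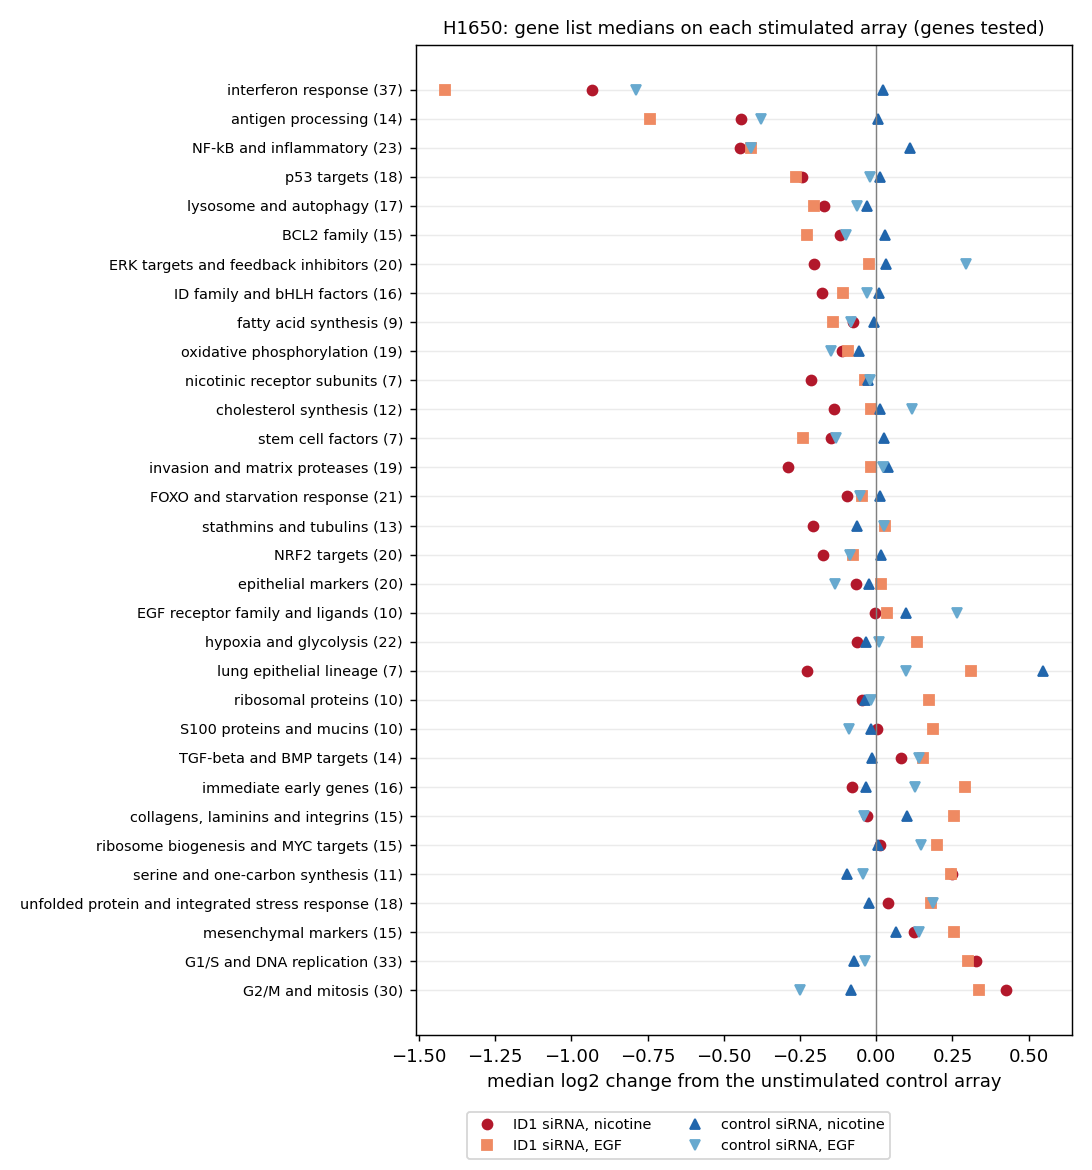
Median log2 change from the H1650 unstimulated control array for each list with 7 or more tested genes (number in brackets), with 1 point per stimulated array. The interferon list lies lowest, at -0.93 and -1.41 on the ID1 siRNA arrays and 0.02 and -0.79 on the control siRNA arrays, and the G2/M list lies highest on the mean of the ID1 siRNA arrays.

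A549 gave a different picture in the same comparison. There 82 genes were called higher (0.655%) and 13 lower (0.104%). The array labelled A549 unstimulated control had an ID1 signal of 1645, near the A549 ID1 siRNA arrays (1343 and 1343) and below the stimulated A549 controls (3719.8 and 3049), so directions drawn from that array rest on its label. The difference between lines, H1650 effect minus A549 effect, was called for 54 genes on the higher side (0.432%) and 147 on the lower side (1.17%). Without the A549 ID1 siRNA array with EGF these counts were 3 and 34, and without the one with nicotine 19 and 70. Without the H1650 ID1 siRNA arrays with nicotine or EGF they were 14 and 80 or 13 and 59. Leaving out the A549 control siRNA array with nicotine or EGF gave 36 and 116 or 35 and 114.

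Interferon genes had medians of opposite sign in the lines. Their median log2 change was -1.15 in H1650 and 1.98 in A549, and 26 of 37 had a called difference, all lower in H1650, beside 1.17% of all genes. Medians were also opposite for antigen processing, -0.60 in H1650 and 0.91 in A549, for NF-kB and inflammatory genes, -0.45 in H1650 and 0.46 in A549, and, within 0.4 of 0, for some other lists. APOBEC3G, outside the interferon list, had a called difference (adjusted p = 0.0088), but its A549 signals were all below the array median, at 27.1 and 38.6 with ID1 siRNA against 3.92 without a stimulus. RSAD2 in A549 had 492 and 742 with ID1 siRNA, 30.7 and 55.5 in stimulated controls and 71.7 in the array labelled unstimulated. Its difference between lines was -5.20 ± 0.68, adjusted p = 0.00806. CMPK2 in A549 had 4516 and 6842 with ID1 siRNA, 217 and 428 in stimulated controls and 764 in that array (difference -5.09 ± 0.76, adjusted p = 0.0133). XAF1 (-5.04 ± 0.81) and OAS2 (-4.73 ± 0.86) had called differences close to these in size. RTP4, HCP5 and KLK10 had called differences too, but their signals on the A549 unstimulated array were 6.53, 6.06 and 7.45, below the array median. With each signal below its array median set to that median, the difference was -2.57 for RTP4, -1.61 for HCP5, -1.84 for KLK10 and -3.04 for APOBEC3G, as values with no test. XAF1, OAS2, RTP4, HCP5 and KLK10 were not called in H1650 alone.

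On the higher side of the difference stood FLRT2 (2.65 ± 0.49), TNFRSF10D (2.44 ± 0.44), PPP2R2D (2.24 ± 0.47), PLCXD3 (2.23 ± 0.33) and CASTOR2 (2.12 ± 0.39). In A549 FLRT2 had 399 on the array labelled unstimulated, 241 and 190 with ID1 siRNA and 94.5 and 56.3 in stimulated controls. PLCXD3 had 403 on that array, 149 and 149 with ID1 siRNA and 298 and 211 in stimulated controls. ZNF469, FXYD2 and MAOA had called differences as well, but were below the array median on the H1650 unstimulated array. With such signals set to the array median their differences were 1.29, 0.75 and 0.76, as values with no test. PLCXD3 and CASTOR2, a subunit of the arginine sensor, were not called in H1650 itself (adjusted p = 0.105 and 0.0615). The G2/M list had a median of 0.40 in H1650 and -0.08 in A549, and 1 of its 30 genes, BUB1B, had a called difference (0.97 ± 0.18, adjusted p = 0.0329), beside 0.432% of all genes called higher in this difference. In A549 BUB1B had 2037 and 2101 with ID1 siRNA against 2365 in the array labelled unstimulated.

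**Figure D5:**
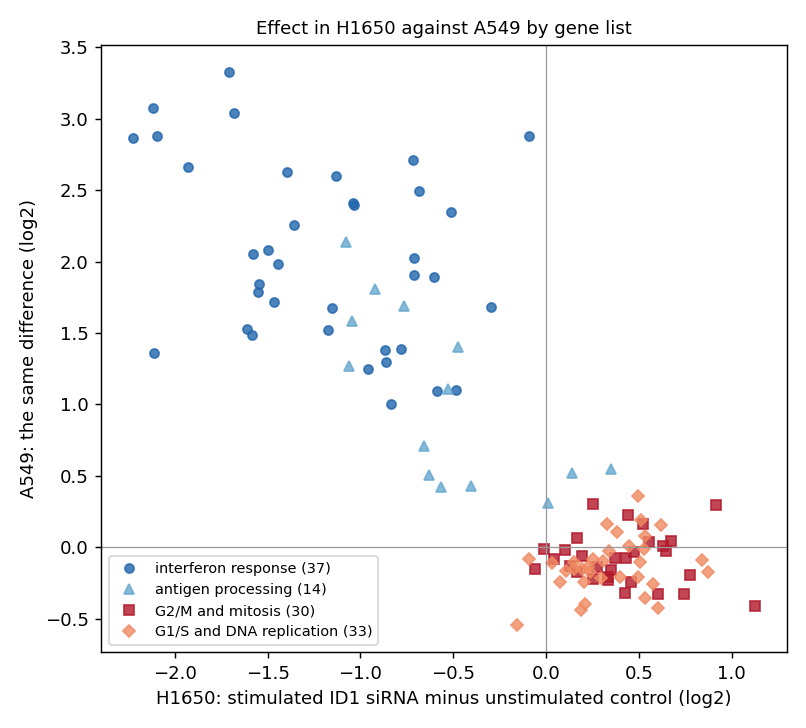
Log2 difference of stimulated ID1 siRNA from unstimulated control in H1650 (horizontal) and A549 (vertical), 1 point per tested gene of 4 lists. Interferon genes (blue circles) lie below 0 in H1650 and above 0 in A549, while G2/M genes (red squares) lie mostly right of 0 in H1650 and near 0 in A549.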

How the data were processed

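The values are linear MAS5 signal intensities deposited by the authors, made with GCOS 1.4 and MAS5 per the submitters' processing notes. The labels speak of log2 values, whereas the authors deposited linear ones, so log2 was taken here. Each array's 2% trimmed mean is 500. All 10 columns were mapped to samples by their titles.

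Of 54675 probe sets, 41091 carried 1 gene symbol in the platform annotation; 62 controls, 1801 with several symbols and 11721 with none were set aside, and 41037 were matched by Entrez identifier. Each of 19775 genes was represented by its brightest probe set on average, and the 12514 genes whose mean log2 over all 10 arrays reached the probe set median (signal 66.7) entered the test. A gene dim in H1650 can therefore enter through A549 alone. With the filter on the 5 H1650 arrays, 57 of the 71 called genes of the naming rule or the text had a value. A model in limma 3.58.1 (R 4.3.3) was fitted to all 10 arrays in 6 arms (line by unstimulated control, stimulated control and stimulated ID1 siRNA) with an intensity trend and 4 residual degrees of freedom, and p-values were adjusted by Benjamini-Hochberg. The number of arrays limits the precision.

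Named are ID1, up to 15 genes per direction called and at least 2-fold changed on both arrays, called list members and up to 8 per direction for the difference between lines, of which the text leaves some out; other genes named were chosen after their values were seen. The members and lists were chosen with earlier results of these data known. Motifs were searched in RefSeq promoter windows (GRCh38.p14). The fit was tested on simulated data with known changes in 200 genes and noise drawn independently for each array. It recovered 7.46% of 1.5-fold, 53.7% of 2-fold and 89.4% of 4-fold changes, and 2.91% of its calls were false. Many real changes of 2-fold or less can therefore go uncalled. Alternatives tried were other scalings, filters, probe set rules, fits and arrays left out.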

Additional observations from a re-analysis of the deposited data

Results flagged for a closer look

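The effect of stimulated ID1 siRNA against the unstimulated control differed between H1650 and A549 by the test of the difference itself, limma's contrast of contrasts at an adjusted p under 0.05, for the genes given here. Values are log2 changes, H1650 minus A549. Lower in H1650 were APOBEC3G at -5.87, RSAD2 at -5.20, CMPK2 at -5.09, MX1 at -4.03, BATF2 at -3.73, RIGI at -3.48, DDX60 at -3.18, BST2 at -2.97, DTX3L at -2.89, ISG20 at -2.70, SP100 at -2.34 and IFIT5 at -2.16. BST2 had nearly no change in H1650 (-0.09), and its difference lay in A549 (2.88).

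Also lower in H1650 were CCL5 at -4.54, EBI3 at -2.95, PSMB9 at -2.63, HLA-F at -2.45, TAP1 at -2.33, IL6 at -2.22, MYD88 at -1.38 and RFX5 at -1.16. Among the remaining lower differences were SFMBT2 at -3.29, NEU1 at -2.18, ID1 at -2.11, ATG13 at -1.94, FAM174A at -1.82, APOBEC3B at -1.46, GALNT7 at -1.42, VAMP3 at -1.38, REEP5 at -1.35 and RRM2B at -1.08. Higher in H1650 were BUB1B at 0.97, H2BC5 at 1.12, HELLS at 1.57, MAMDC2 at 1.45, BRI3BP at 1.52, MTHFD2L at 1.54, CCDC80 at 2.06, PPP2R2D at 2.24, TNFRSF10D at 2.44, FLRT2 at 2.65, MAOA at 3.24, FXYD2 at 4.08 and ZNF469 at 4.23. Some sizes rest on signals below the array median: APOBEC3G on all 3 A549 arrays compared, SFMBT2 on all 3 of H1650, EBI3 on the H1650 ID1 siRNA array with EGF, MAOA and ZNF469 on the H1650 unstimulated array and FXYD2 on that one and the ID1 siRNA array with EGF. With each such signal set to its array median, the differences were -3.04 for APOBEC3G, -0.30 for SFMBT2, -2.52 for EBI3, 0.76 for MAOA, 0.75 for FXYD2 and 1.29 for ZNF469. The A549 array labelled unstimulated control had a low ID1 signal, so each of these differences rests on its label, and its part in them was not tested. For some genes that array lay nearer the A549 ID1 siRNA arrays than the stimulated A549 controls. VAMP3 had 2374 there, 1991 and 1870 with ID1 siRNA and 5521 and 6672 in stimulated controls. REEP5 had 1810 there, 1467 and 1390 with ID1 siRNA and 4027 and 4505 in stimulated controls. For others, such as MX1, it did not: 1091 there, 5755 and 7894 with ID1 siRNA and 361 and 615 in stimulated controls.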

How the results depend on the processing

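The main counts were 110 genes called higher and 214 lower. Quantile normalization gave 209 and 310, centring on array medians 78 and 438 (15.1% of calls higher, against 34.0%, with the median of all genes shifted by -0.11), no filter 56 and 129, the mean of all probe sets 39 and 67, and no intensity trend 7 and 11. The 5 H1650 arrays alone gave 26 and 66, the 3 arrays compared 315 and 426 on 1 residual degree of freedom, and a nicotine against EGF term 289 and 473. Leaving out 1 array gave 21 to 192 higher and 53 to 330 lower. The 138 higher and 139 lower genes at 2-fold became 80 higher with 16 added to the signal, 67 higher with a filter at the 60th percentile, 909 and 688 without a filter, 502 and 617 at 1.5-fold, 37 and 24 at 3-fold, and 243 to 253 and 308 to 339 on 1 array alone. Requiring signals at or above the array median, an alternative chosen after seeing the data, gave 48 higher. The 54 higher and 147 lower differences between lines became 18 and 76 without a filter, 13 and 63 with the mean of all probe sets, 2 and 14 without a trend, and 3 to 73 and 34 to 196 with 1 array left out. Called interferon genes, 4 in the main fit, numbered 0 without a trend and 31 in the fits to 3 arrays and with a stimulus term. Among the 71 called genes of the naming rule or the text, none reversed under the alternatives run, and 16 stayed called without a trend. Alternatives that change only the spread, or leave out arrays outside the comparison, cannot move the log2 change. Every alternative also uses the same unstimulated array, so the lack of reversals does not show that directions are stable. The highest adjusted p over the alternatives was 0.039 for ID1, APOBEC3B, GALNT7, VAMP3, REEP5 and FAM174A. The cause of the other changes was not tested. The nicotine against EGF term pairs arrays by stimulus, and the labels give no replicate number to pair by. Setting dim signals to the array median, for named differences between lines, was chosen after seeing the data. Signals below the array median limit the folds of dim genes.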

Other observations

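AOX1, aldehyde oxidase, had 1285 and 2002 in ID1 siRNA cells with nicotine and with EGF, 324 and 843 in stimulated controls and 413 in the unstimulated control (log2 1.96 ± 0.48, adjusted p = 0.0609 by limma), and its other bright probe set changed by 2.18. CCL2, a chemokine for monocytes, had 86.4 and 64.2 in ID1 siRNA cells, 59.4 and 19.2 in stimulated controls and 29.5 in the unstimulated control, opposite in sign to CCL5, and was not called (adjusted p = 0.215). Both genes were chosen after their values were seen.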
